A study of Oryza sativa Japonica Group with 14 samples.

Results

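The comparison concerns the repressive histone mark H3K27me3 in the inflorescence meristem (IM) of rice, in wild-type (WT) plants and in plants carrying RNA interference against SDG711. Its members are the 11157 H3K27me3 peaks listed for WT IM and the 8000 listed for SDG711 RNAi IM, together 19157 of the 130467 peaks in the 8 deposited lists. Both genotypes had the DongJin background and apices of both were dissected by hand at 1 to 2 mm, at about the 10 to 12 leaf stage. WT apices were harvested on 21 to 24 June and RNAi apices on 17 to 19 June, so genotype and harvest days cannot be told apart. Each group was 1 library made from pooled apices of field plants (about 400 plants are named for the collection). How many RNAi lines were pooled is not stated. The degree of SDG711 knock-down was not analysed here, because only peak lists were used. Lists of the jmj703 mutant IM and of the WT vegetative shoot apex (SAM) were used for comparison. The jmj703 apices were harvested on the WT IM days of 21 to 24 June. SAM apices were up to 0.5 mm, at the 6 to 7 leaf stage.

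H3K27me3 is written by the Polycomb repressive complex PRC2, whose catalytic subunit in plants is an Enhancer of zeste-type SET-domain protein. SDG711 is one such subunit in rice, and another, SDG718, is also encoded in the rice genome. The mark typically covers the bodies of silent developmental genes, among them regulators of flowering and floral organ identity, in stretches of kilobase length. SDG711 is known for its part in photoperiodic flowering and in panicle development.

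The question is which H3K27me3 in the inflorescence meristem differs when SDG711 is reduced. A peak was called paired where it overlapped exactly 1 peak of the other list by at least 1 bp and that peak overlapped no other. Tag density is the number of tags in a peak per kb of its length and per 1000000 filtered tags of the library (RPM per kb). Filtered tags numbered 22887617 for WT IM and 10502005 for SDG711 RNAi IM. With 1 library per group no difference was tested. Intervals are 95% intervals for counting error over peaks or tags, and the spread between plants or preparations is not in them. Since tags are scaled to each library's own total, a change shared by all H3K27me3 sites cannot be seen. No genome build is stated for the positions, so sites are given by coordinate and no gene or sequence is named.

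Pairing joined 6253 peaks of each list, 56.0% of the WT list and 78.2% of the RNAi list. The share of all library tags lying in peaks was nearly the same, at 18.3% in WT IM and 18.9% in SDG711 RNAi IM. These tags were spread over 26.2 Mb in WT IM and over 19.7 Mb in SDG711 RNAi IM. Within the pairs alone, the peaks held 13.001% of WT tags on 17.5 Mb and 15.3% of RNAi tags on 15.9 Mb. The RNAi library thus had the mark listed on less sequence, at a higher density of tags.

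At the shared sites the listed H3K27me3 peaks were denser in the RNAi library, not sparser. This direction was not particular to the RNAi library. Pairs of WT IM with jmj703 IM and with WT SAM had median log2 ratios of 0.16 and 0.09 over WT IM. Each of these libraries had fewer tags than WT IM, and the part of depth was not tested. The median density of the paired peaks was 6.62 RPM per kb in WT IM (quartiles 5.56 and 7.86) and 7.95 in SDG711 RNAi IM (quartiles 6.53 and 9.87). These medians lie 2.65 and 3.19 times above the average of 2.49 over the effective genome. The median log2 ratio of RNAi to WT was 0.30 (interval 0.29 to 0.31), a factor of 1.23, with quartiles of 0.14 and 0.46. The RNAi density was the higher one in 5561 of 6253 pairs (88.9%). Each density was taken over the peak's own length in its list. Counted per peak (RPM, without division by length), the difference was smaller and less uniform. The median log2 ratio of RNAi to WT was then 0.18 (interval 0.17 to 0.20), with quartiles of -0.19 and 0.48. Per peak, the RNAi value was the higher one in 3996 of 6253 pairs (63.9%).

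Few pairs differed by a large factor. At least 1.5-fold denser in the RNAi library were 704 pairs (11.3%), and at least 1.5-fold less dense were 5 pairs (0.0800%). These counts depended on the scale: after the genome-wide average was subtracted from each density they were 2266 and 34, and after each ratio was centred on the median of 0.30, which balances both sides by construction, they were 75 and 81. The robust SD of the log2 ratios was 0.24, and the median standard error expected from the tag counts alone was 0.13, so the pairs varied among themselves by more than counting error. Densities of the 2 libraries followed each other over the pairs with a Pearson r of 0.805 on the log2 scale, a description over sites that share the same 2 libraries. Peaks were listed only above a floor that differed between the libraries: the 5th percentile of density was 4.21 in the WT list and 5.36 in the RNAi list. The part of this floor in the shift was not tested.

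**Figure D1:**
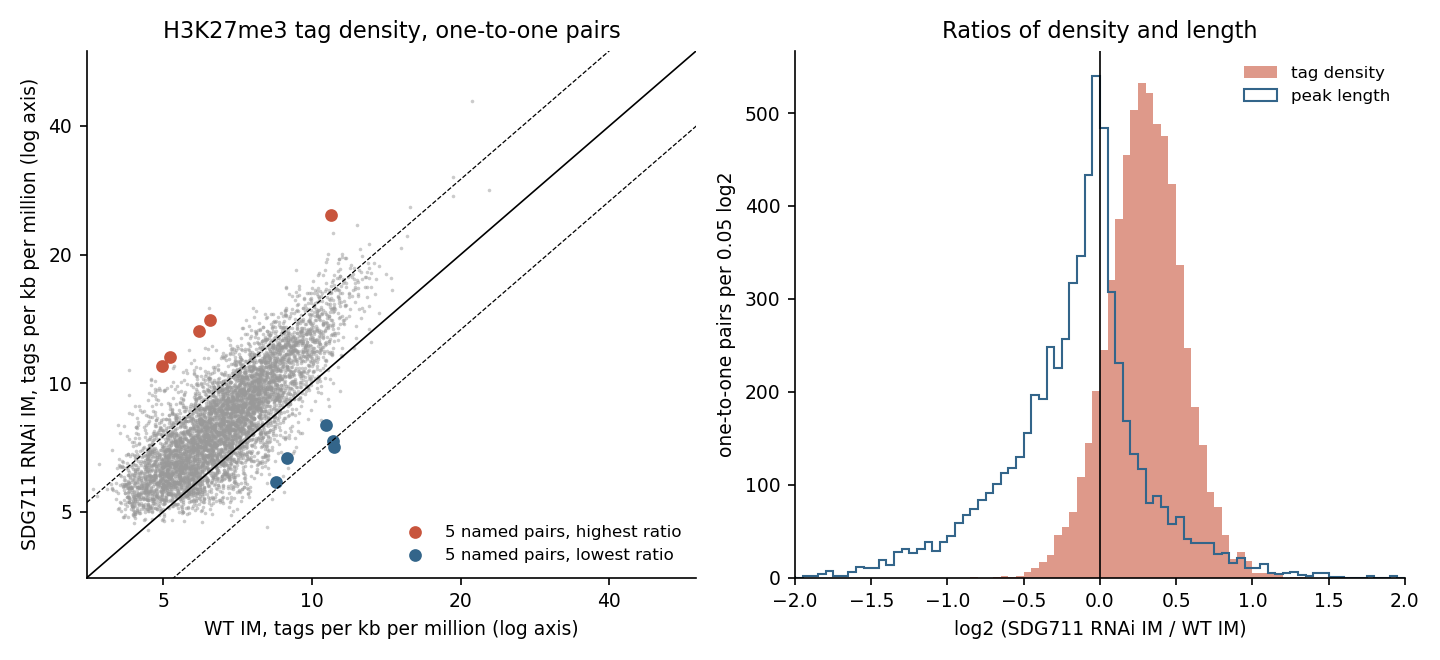
Left, tag density of each of the 6253 paired H3K27me3 peaks in WT IM (x) and SDG711 RNAi IM (y), both log axes, with the line of equality (solid) and of 1.5-fold difference (dashed); coloured points are the 5 named pairs with the highest and the 5 with the lowest ratio. Right, histograms of the log2 ratio of density (filled) and of peak length (outline): density is centred above 0, at 0.30, and length slightly below it, at -0.10.

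The highest ratios were found at peaks of 823 to 3518 bp in WT IM. Pairs were ranked among the 4388 with at least 100 tags in both libraries and an overlap of at least 50% of both peaks. On chromosome 3, from 35617076 to 35618516, WT IM held 195 tags at a density of 5.91. The RNAi peak there, of nearly the same extent, held 197 tags at a density of 13.2. The log2 ratio was 1.16 (counting interval 0.87 to 1.46). Nearly equal raw tags, in a library with 0.459 times the total, correspond to a 2.24-fold higher density. This site had an H3K27me3 peak in jmj703 IM, an IM sample of an H3K4 demethylase mutant, at a density of 7.90, and none in WT SAM, the vegetative shoot apex.

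On chromosome 11, from 20594289 to 20595539, the same combination of lists was found. WT IM held 148 tags (density 5.17) and SDG711 RNAi IM held 164 (density 11.5), with a log2 ratio of 1.15 (interval 0.82 to 1.48). The jmj703 IM density was 6.46, between those of WT IM and SDG711 RNAi IM, and no H3K4me3 list had a peak at either site. Both sites were chosen for their high RNAi over WT ratio, so the difference is a description.

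The widest of the 5 lay on chromosome 11 from 6334428 to 6337945. It held 501 tags over 3518 bp in WT IM (density 6.22) and 387 tags over 2624 bp in SDG711 RNAi IM (density 14.0). Tags per 1000000 (RPM) were 21.9 and 36.9, so the RNAi peak was higher per peak as well as per kb. H3K4me3, the mark of active promoters, was also listed there in WT SAM, WT IM and SDG711 RNAi IM. The pair on chromosome 8 that begins at 4303142 had densities of 4.96 in WT IM and 11.0 in SDG711 RNAi IM. The highest ratio among the ranked pairs was at the start of chromosome 2, from 1 to 823, with 206 and 218 tags. Densities were 10.9 and 24.8, with a log2 ratio of 1.18 (interval 0.90 to 1.46), and all 6 other lists had a peak there. Nearly equal raw tags were common to the 6 chromosome starts listed in both libraries, at 0.829 to 1.07 times the WT number. The high ratio is thus shared by sites of this position, and its source was not tested.

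The lower end was less clear-cut, because peak boundaries differed along with the density. Among the same 4388 ranked pairs, the lowest ratio was on chromosome 9 from 16495385 to 16496897, where WT IM had 384 tags in 1513 bp (density 11.1). The RNAi peak ran over 2781 bp with 207 tags (density 7.09), which is a log2 ratio of -0.65 (interval -0.90 to -0.40). Counted per peak, RPM were 16.8 in WT IM and 19.7 in SDG711 RNAi IM, so the RNAi peak was wider and did not hold fewer tags. The same held for the peak at 28345077 to 28347099 of chromosome 3, with 21.6 and 21.8 RPM and a log2 density ratio of -0.42.

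Lower density together with lower RPM was seen at 3 of these 5 pairs. On chromosome 11 from 21681931 to 21684863, WT IM had 568 tags over 2933 bp (density 8.46) and SDG711 RNAi IM had 166 tags over 2695 bp (density 5.87). RPM were 24.8 and 15.8, and the log2 density ratio was -0.53 (interval -0.79 to -0.28). The pair at 16025923 to 16027587 of chromosome 5 had 14.8 and 9.62 RPM. The pair at 19450665 to 19452454 of chromosome 8 had 19.8 and 18.3 RPM. All 5 of these pairs had H3K27me3 in WT SAM at densities of 8.996 to 10.8 and in jmj703 IM at 8.21 to 10.5, in each case above the RNAi density at that site. The 5 pairs were chosen for their low RNAi over WT ratio, so a low RNAi density is built into the choice and the comparison is a description.

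How the ratio depended on the strength of a site was read from libraries outside the pair, so that ranking by a value and dividing by it were kept apart. Among the 5584 pairs with a jmj703 IM peak matched in the same way, the median log2 ratio was 0.26 in the lowest quintile by jmj703 density and 0.39 in the highest quintile. The share of pairs at least 1.5-fold denser in the RNAi library was 9.04% in the lowest quintile and 17.4% in the highest, against 11.3% over all pairs. Ranked by WT SAM density instead, the 4426 matched pairs showed no such order: the median was 0.30 in the lowest quintile and 0.26 in the highest. The quartiles of the lowest and the highest jmj703 quintile overlapped, at 0.12 to 0.41 and 0.24 to 0.53.

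**Figure D2:**
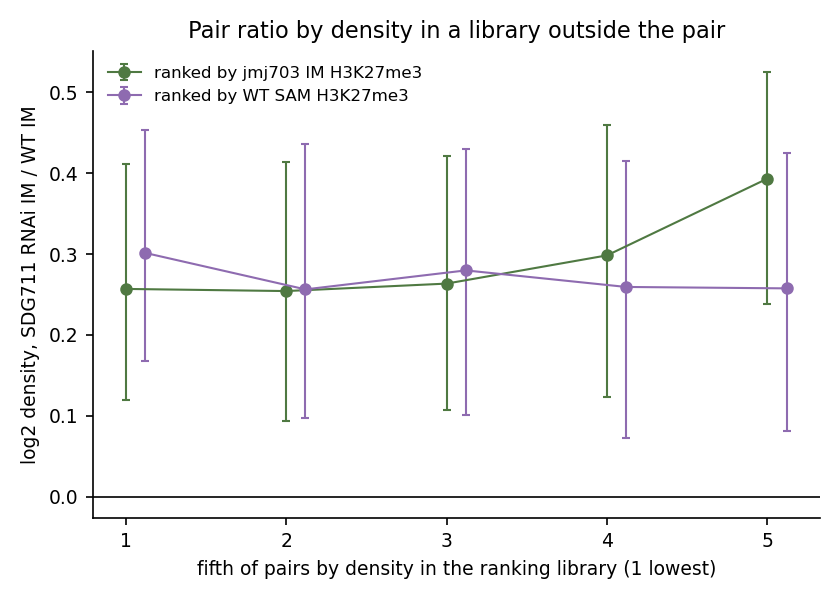
Median log2 ratio of tag density (SDG711 RNAi IM over WT IM, y) of paired H3K27me3 peaks in quintiles by their density in a library outside the pair (x), with bars from the lower to the upper quartile; all quartile bars lie above 0. With jmj703 IM as the ranking library (5584 pairs) the median goes from 0.26 to 0.39, and with WT SAM (4426 pairs) from 0.30 to 0.26.

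Paired peaks were slightly shorter in the RNAi library. The median length was 2390 bp in WT IM (quartiles 1606 and 3643) and 2095 bp in SDG711 RNAi IM (quartiles 1366 and 3280). The median log2 length ratio was -0.10 (interval -0.11 to -0.09), and 4119 of 6253 RNAi peaks were the shorter ones (65.9%). The RNAi edges lay slightly inside the WT edges, with median differences of 41 bp on the left and -53 bp on the right, and the summits were a median of 257 bp apart. At least 1.5-fold shorter in the RNAi library were 987 pairs (15.8%) and at least 1.5-fold longer were 293 (4.69%).

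The difference in length varied with the strength of a site in the outside libraries. In the lowest quintile by jmj703 IM density, the median length was 1566 bp in WT IM and 1265 bp in SDG711 RNAi IM, a median log2 ratio of -0.24. In the highest quintile, it was 3946 and 3941 bp, a median log2 ratio of -0.02. Ranked by WT SAM density, the median log2 length ratios from the lowest to the highest quintile were -0.12, -0.17, -0.14, -0.10 and -0.04, so the lowest quintile did not have the largest difference there. The strongest sites by either ranking thus had nearly the same listed extent in both libraries and a higher density in the RNAi library. The RNAi library had 0.459 times the tags, and the part of depth in this difference was not tested.

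Most RNAi peaks lay largely within their WT partner. The overlap made up a median of 98.2% of the RNAi peak and 89.2% of the WT peak. The RNAi peak lay wholly inside the WT peak in 2422 pairs (38.7%), and the WT peak inside the RNAi peak in 986 (15.8%). Pairs that only touched were few, with 11 overlapping by under 10% of the shorter peak, at median densities of 5.10 in WT IM and 6.11 in SDG711 RNAi IM. On the other side of the 1 bp limit, 112 unpaired WT peaks and 90 unpaired RNAi peaks ended within 200 bp of a peak of the other list.

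Long WT peaks were rarely broken up. Over the whole lists, 121 WT peaks (1.08%) overlapped 2 or more RNAi peaks, and 176 RNAi peaks (2.20%) overlapped 2 or more WT peaks. Among peaks of 5 kb or more the counts were 20 of 865 in WT IM (2.31%, interval 1.502 to 3.54%) and 31 of 728 in SDG711 RNAi IM (4.26%, interval 3.02 to 5.98%). Both shares are above those of the whole lists, and the intervals of the 2 lists overlap. Which list is broken up more depended on the list: with peaks up to 1 kb apart joined first, the shares were 2.75% of WT and 2.29% of RNAi regions, and with equally many peaks in both lists they were 2.52% and 1.65%. Restricting each list to p of 1e-10 or less gave the order of the full lists, at 0.303% and 1.18%.

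Where a WT peak was broken up, the pieces remained close together. The median gap between RNAi pieces was 127 bp, 114 of 122 gaps were at most 1 kb, and the pieces covered a median of 86.2% of the WT peak. In the other direction the median gap was 63 bp and the coverage 93.2%. The single WT peak that met 3 RNAi peaks was on chromosome 4 from 966623 to 970157, with 445 tags over 3535 bp (density 5.50). Its RNAi pieces held 72, 79 and 47 tags at densities of 5.79, 7.14 and 6.36, and the first and the second of them were 1 bp apart. None of the pieces was below the density of the WT peak.

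The longest broken WT peak was on chromosome 11 from 10933473 to 10940393, with 1132 tags over 6921 bp (density 7.15). Its RNAi pieces ran from 10934000 to 10936874 with 293 tags and from 10937922 to 10940399 with 210 tags, at densities of 9.70 and 8.07. On chromosome 1 from 30291632 to 30298290, a WT peak of 1203 tags became pieces of 142 and 254 tags that left the bases between 30293633 and 30295314 unlisted. Here H3K4me3 was listed in WT SAM, SDG711 RNAi IM and jmj703 IM and was absent from the WT IM list. Of the 698 WT peaks of 5 kb or more with any RNAi partner, 379 were covered to at least 90% (54.3%) and 47 to under 50% (6.73%).

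Peaks without any partner numbered 4442 in the WT list (39.8%) and 1339 in the RNAi list (16.7%). The lists differed in length, and when the WT list was cut to its 8000 most significant peaks, 27.7% of WT and 27.1% of RNAi peaks had no partner. The unpaired peaks held 4.63% of WT library tags and 2.66% of RNAi library tags. They were weak on the whole, with a median density of 4.84 in WT IM, against 6.61 for WT peaks with a partner, and of 6.45 against 7.93 in SDG711 RNAi IM.

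Peak length separated 2 kinds of unpaired peak. The unpaired share of WT peaks was 75.2% under 1 kb (900 of 1197, interval 72.7 to 77.6%) and 52.5% at 1 to 2 kb, against 39.8% over the list. It was lowest at 4 to 5 kb, with 13.9% (100 of 722, interval 11.5 to 16.6%), and was higher again at 7 kb or more, with 34.6% (54 of 156, interval 27.6 to 42.4%). The RNAi list had the same shape around its 16.7%, with 41.7% under 1 kb (409 of 980), 7.996% at 3 to 4 kb (71 of 888) and 30.6% at 7 kb or more (44 of 144, interval 23.6 to 38.5%).

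The short unpaired peaks were sparse and the long ones were not. At 1 to 2 kb, the median WT density was 4.78 without and 5.66 with a partner. At 7 kb or more it was 9.92 without (quartiles 8.78 and 11.2) and 9.27 with a partner (quartiles 8.12 and 10.4). In the RNAi list the values at 7 kb or more were 13.8 and 12.7. Long peaks without a counterpart thus carried as many tags per kb as long peaks that had one.

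The significance given by the authors was lower at great length, for peaks with and without a partner. The deposited negative log10 p of WT peaks with a partner had a median of 26.9 at 4 to 5 kb and was 9.63 at 7 kb or more, although density increased throughout. In the RNAi list these values were 21.3 and 8.77. Unpaired peaks had medians of 12.4 at 4 to 5 kb and 8.33 at 7 kb or more in WT IM. The unpaired RNAi values were 11.1 and 8.47. At 7 kb or more, 57.1% of WT peaks and 60.4% of RNAi peaks had p above 1e-10, against 12.7% and 17.3% at 4 to 5 kb. Per the file headers, the regional background was taken from the same library over 10 kb, and the longest peak of any list was 8850 bp, although regions up to 14650 bp in WT IM and 15193 bp in SDG711 RNAi IM appeared when peaks up to 1 kb apart were joined. Absence of a long peak from 1 list is therefore not shown to be absence of the mark. The part of the background window was not tested.

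**Figure D3:**
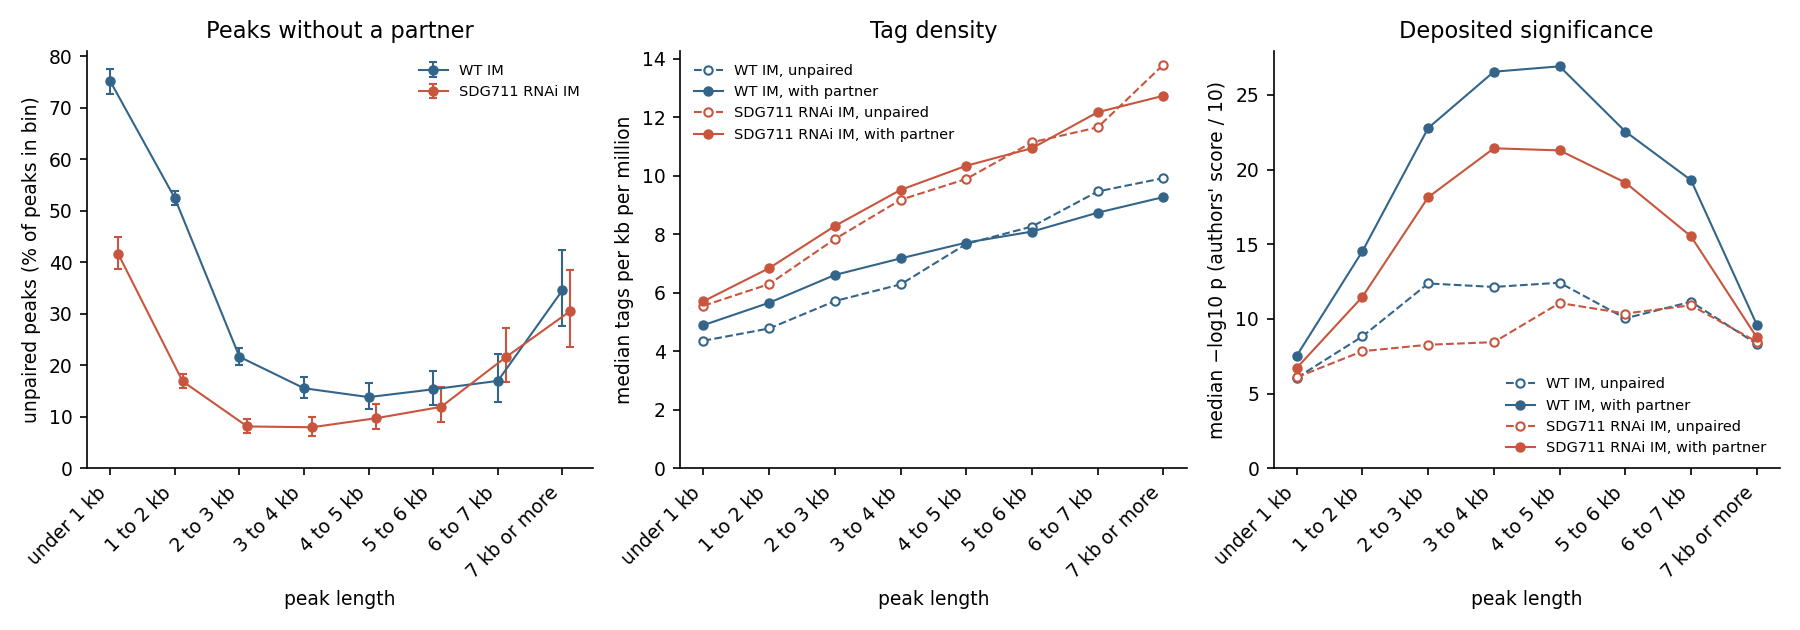
H3K27me3 peaks of WT IM (blue) and SDG711 RNAi IM (red) by peak length (x). Left, share of peaks without a partner with 95% Wilson bars, lowest at intermediate length and near 30% to 35% at 7 kb or more; middle, median tag density; right, median deposited significance, for unpaired peaks (open, dashed) and peaks with a partner (filled, solid).

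The longest peaks of both lists fell mostly into this class. Of the 5 longest WT peaks, 4 had no RNAi peak, and of the 5 longest RNAi peaks, 4 had no WT peak. On chromosome 1 from 13836001 to 13844697, WT IM held 2299 tags at a density of 11.5 and a negative log10 p of 5.75. On chromosome 8 from 11372243 to 11381048, SDG711 RNAi IM held 2052 tags at a density of 22.2 and a negative log10 p of 5.35. All 10 of these peaks overlapped H3K27me3 in WT SAM, at densities of 6.87 to 11.5, as did 87.4% of all unpaired WT and 83.9% of all unpaired RNAi peaks of 5 kb or more. Of peaks this long with a partner, 90.5% (WT) and 93.9% (RNAi) did so. In jmj703 IM the shares were 54.5% of unpaired WT peaks against 91.3% with a partner, and 50.4% against 92.2% for RNAi peaks. The 2 peaks given above by position had no jmj703 IM peak.

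Among unpaired peaks of at least 1 kb with p at most 1e-10, 1594 in the WT list and 314 in the RNAi list, the densest were compared one by one. The densest WT peak was on chromosome 3 from 6018850 to 6021057, with 877 tags over 2208 bp (density 17.4). It had H3K27me3 in WT SAM at a density of 11.9 and in jmj703 IM at 18.1, and the nearest RNAi peak was 27669 bp away. A neighbour on the same chromosome, from 6045186 to 6052292, with 2316 tags (density 14.2), was the fourth densest and also lay in a WT SAM peak. Both therefore belong to a stretch of chromosome 3 where WT IM and WT SAM listed the mark and the RNAi library did not.

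The other WT sites of this group were on chromosome 12 from 23128832 to 23132811 (1333 tags, density 14.6), chromosome 2 from 8905637 to 8910608 (1628 tags, density 14.3) and chromosome 4 from 28814293 to 28816336 (660 tags, density 14.1). All 3 were listed in WT SAM and in jmj703 IM, where their densities were 16.8, 14.5 and 17.1. None of the 5 WT sites had an H3K4me3 peak in any IM list, and only the one on chromosome 12 had one in WT SAM. The deposited fold enrichment of these dense peaks was low, from 2.11 to 2.99.

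The densest RNAi peak without a WT partner was on chromosome 11 from 12277516 to 12282589, with 1855 tags over 5074 bp (density 34.8). No other H3K27me3 list had a peak there, whereas the H3K4me3 lists of WT SAM and SDG711 RNAi IM did, with 2169 and 1856 tags. No control library was used here to show the tags this sequence gives without a ChIP. The next, on chromosome 11 from 12327630 to 12329577, held 524 tags (density 25.6) and lay in H3K27me3 peaks of WT SAM and jmj703 IM and in H3K4me3 peaks of all 3 IM libraries.

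The other 3 RNAi sites were plain H3K27me3 domains without H3K4me3 in any list. On chromosome 1 from 4661216 to 4668419 there were 1418 tags (density 18.7), on chromosome 12 from 3843401 to 3848867 there were 1026 (density 17.9), and on chromosome 5 from 23183299 to 23188347 there were 945 (density 17.8). Each lay in a WT SAM peak, at densities of 7.33, 7.89 and 7.21, and none was listed in jmj703 IM. Their extents were 7204, 5467 and 5049 bp.

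The other libraries, which took no part in the pairing, set the 2 kinds of unpaired peak apart. H3K27me3 in jmj703 IM was present at 91.8% of WT peaks with a partner and at 54.1% of those without (2404 of 4442, interval 52.7 to 55.6%). In WT SAM it was present at 76.5% and 56.3%. For RNAi peaks the shares with and without a partner were 91.8% and 40.7% in jmj703 IM, and 76.1% and 31.4% in WT SAM. No peak in either of these lists was found at 1137 unpaired WT peaks (25.6%, interval 24.3 to 26.9%) and at 594 unpaired RNAi peaks (44.4%, interval 41.7 to 47.0%). Unpaired RNAi peaks thus had a peak in these libraries less often than unpaired WT peaks did, with no test of that difference.

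H3K4me3 was more often listed at unpaired than at other peaks of the WT list, and not of the RNAi list. Of unpaired WT peaks, 36.0% overlapped WT IM H3K4me3 (1597 of 4442, interval 34.6 to 37.4%), against 19.1% of WT peaks with a partner (interval 18.2 to 20.1%). Of unpaired RNAi peaks, 17.9% overlapped SDG711 RNAi IM H3K4me3 (240 of 1339, interval 16.0 to 20.1%), against 20.4% of those with a partner. The H3K27me3 sites listed in WT IM and missing from the RNAi list therefore overlapped the active mark more often. The overlap joins separate libraries and does not show both marks on the same nucleosomes.

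The difference lay in peaks under 2 kb. Under 1 kb, 55.2% of unpaired WT peaks overlapped WT IM H3K4me3 and 21.9% of those with a partner did. At 1 to 2 kb the shares were 36.0% and 22.3%, and at 2 to 5 kb they were 16.2% and 16.2%. Among peaks of 1 to 2 kb with p above 1e-10 in the deposited list, a group chosen after the values were seen, they were 36.8% (582 of 1583, interval 34.4 to 39.2%) and 18.2% (122 of 669, interval 15.5 to 21.3%). Whether unpaired peaks and those with a partner had the same length and p within these bounds was not tested. In the same group of the RNAi list, 11.4% of unpaired peaks and 16.3% of those with a partner overlapped SDG711 RNAi IM H3K4me3.

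The active mark was listed at these sites in the other genotypes too. Of the 4442 unpaired WT peaks, 42.9% overlapped H3K4me3 in WT SAM, 37.1% overlapped it in SDG711 RNAi IM and 31.7% did so in jmj703 IM, against 25.3%, 21.2% and 13.9% of WT peaks with a partner. H3K4me3 was thus listed at a like share of these sites in the RNAi library as in WT IM, where the share was 36.0%.

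**Figure D4:**
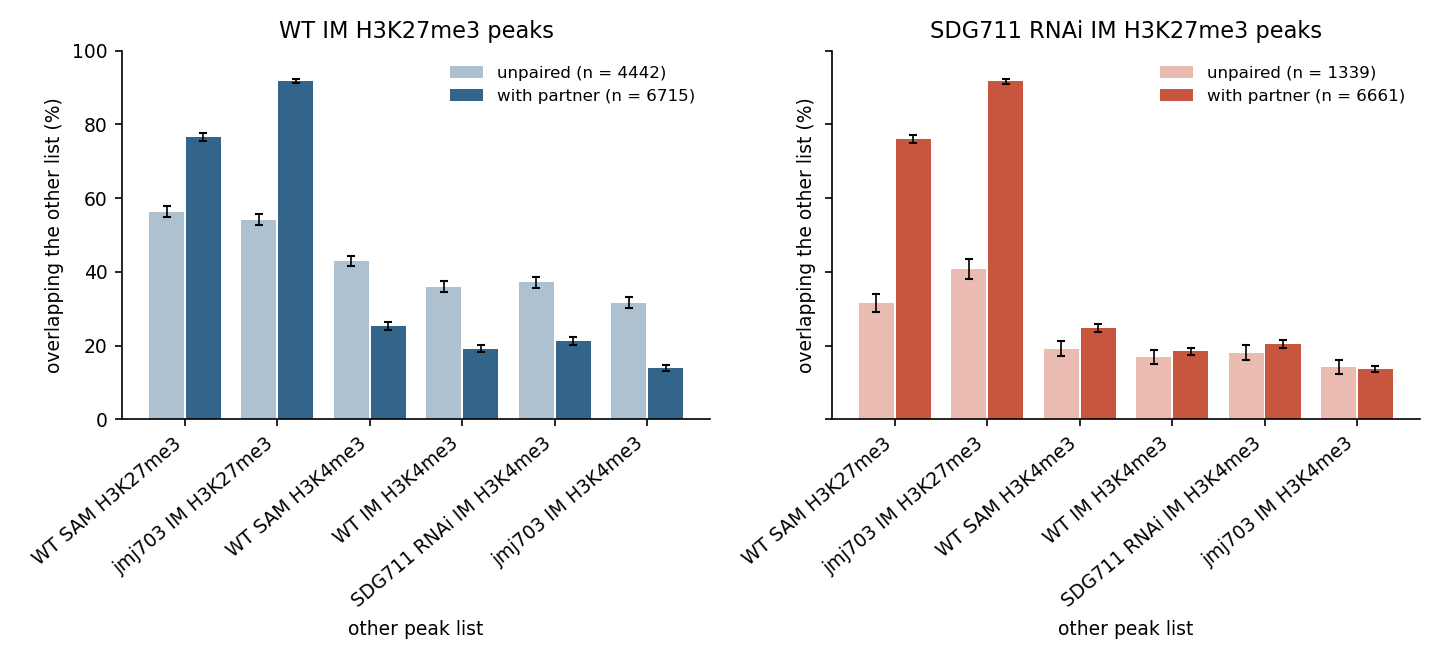
Share of WT IM (left, blue) and SDG711 RNAi IM (right, red) H3K27me3 peaks that overlapped each of the other 6 peak lists (x), for peaks without (light) and with (dark) a partner in the opposite H3K27me3 list; bars are 95% Wilson intervals. Unpaired WT peaks overlap H3K4me3 more often than paired ones, for example 36.0% against 19.1% in WT IM, and unpaired RNAi peaks do not.

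Unpaired peaks occurred on every chromosome, and the share of WT peaks without a partner differed between chromosomes. For WT peaks it was highest on chromosome 3 (44.9%, 492 of 1096, interval 42.0 to 47.8%) and lowest on chromosome 8 (34.8%, 286 of 822, interval 31.6 to 38.1%), against 39.8% over all. Chromosomes 1, 2, 3 and 4 had 40.9% to 44.9% and the other 8 chromosomes 34.8% to 40.1%. For RNAi peaks the share over all was 16.7%. It was lowest on chromosome 8, at 14.8% (interval 12.2 to 17.8%). The highest was 20.8% on chromosome 9 (99 of 475, interval 17.4 to 24.7%). Since these intervals overlap, a difference between chromosomes is not shown for the RNAi list. The share of WT peaks that overlapped WT IM H3K4me3 was also highest on chromosome 3, at 32.5%, and followed the order of the unpaired shares in part. It was 30.2% on chromosome 1 and 30.8% on chromosome 2, with 43.1% and 40.9% unpaired. On chromosomes 11 and 12 it was 18.8% and 20.4%, with 36.7% and 35.2% unpaired. Exceptions were chromosome 4, with 24.6% and 42.5% unpaired, and chromosome 8, with 24.1% and the lowest unpaired share. The relation was not tested.

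Density at the paired sites did not follow the order of the unpaired shares. The median log2 ratio lay between 0.28 on chromosome 4 and 0.33 on chromosome 12. Tags in peaks (RPM) were 17353 in WT IM and 16442 in SDG711 RNAi IM on chromosome 3, a ratio of 0.948, and 13900 and 15126 on chromosome 8, a ratio of 1.09. The number of peaks was lower in the RNAi list on each of the 12 chromosomes, at 0.661 to 0.763 of the WT number. The fewer RNAi peaks held 0.948 to 1.09 times the WT RPM. This ratio was lowest on chromosomes 3, 4 and 1 (0.948, 0.973 and 1.01), which had the highest unpaired WT shares. It was highest on chromosome 8, which had the lowest unpaired WT share. Chromosome 9 was an exception, with a ratio of 1.07 and 40.1% unpaired. The relation was not tested.

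**Figure D5:**
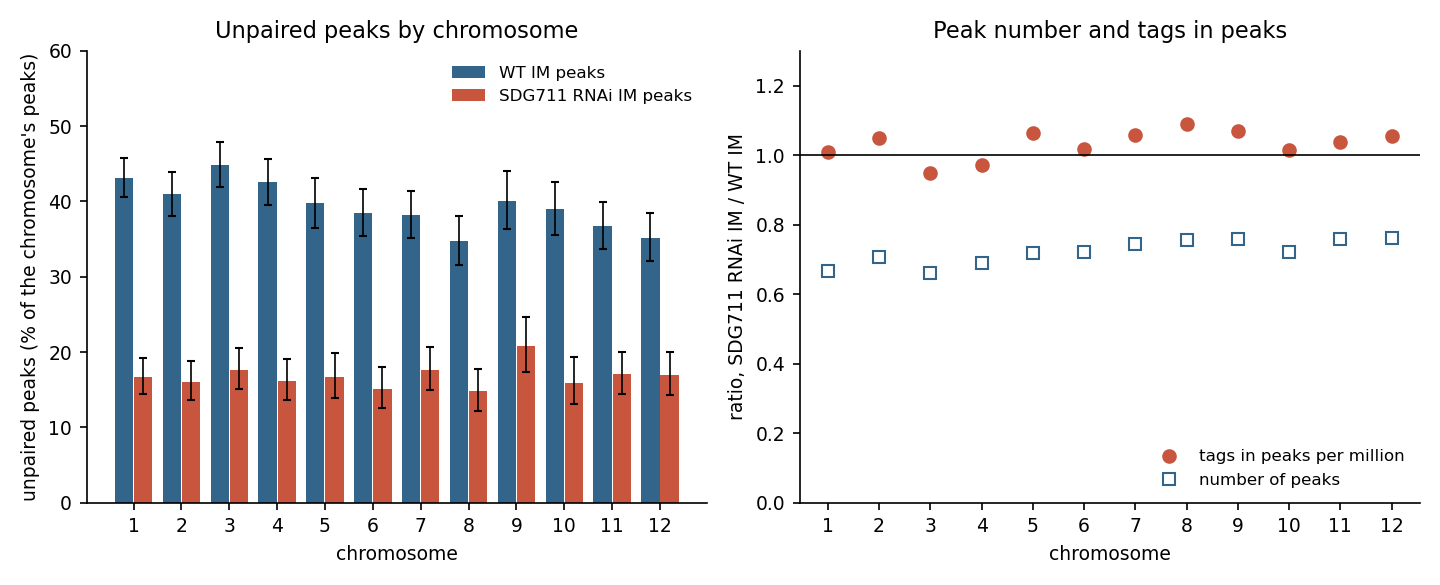
Left, share of each chromosome's H3K27me3 peaks without a partner (y, bars with 95% Wilson intervals) in the WT IM (blue) and SDG711 RNAi IM (red) lists by chromosome (x), from 34.8% to 44.9% and from 14.8% to 20.8%. Right, ratio of SDG711 RNAi IM to WT IM in tags in peaks, RPM (circles, 0.948 to 1.09) and in number of peaks (squares, 0.661 to 0.763).

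At finer scale, 76 windows of 5 Mb held at least 50 WT peaks each. The highest unpaired WT shares were 54.2% on chromosome 3 from 30 to 35 Mb (90 of 166, interval 46.6 to 61.6%) and 54.0% on the same chromosome from 5 to 10 Mb (75 of 139). The lowest was 27.04% on chromosome 12 from 15 to 20 Mb (43 of 159, interval 20.7 to 34.4%). In the first of these windows 40.4% of the WT peaks overlapped WT IM H3K4me3 and the median WT peak was 1566.5 bp long, and in the last 10.1% did and it was 2519 bp. The part of these features in the difference between the windows was not tested. Distance from the chromosome end made a smaller difference: the unpaired WT share was 35.3% within 1 Mb of an end (285 of 807, interval 32.1 to 38.7%) and 39.2% to 41.0% farther in.

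Runs of neighbouring unpaired peaks were short. The 4442 unpaired WT peaks formed 2557 runs, of which 98 held 5 or more peaks. The longest held 9 peaks on chromosome 1 from 13665517 to 14169939, with 5396 tags at densities of 4.27 to 11.5. Of these 9, 6 lay in WT SAM and 5 in jmj703 IM H3K27me3 peaks, near the shares of 56.3% and 54.1% over all unpaired WT peaks, and 2 RNAi peaks lay between members of the run. Runs of 8 spanned 10397783 to 10693351 of chromosome 3 and 23252367 to 23636116 of chromosome 11, and both were made of weak peaks, with median densities of 4.48 and 5.01.

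The 3 named runs of the RNAi list differed in length and density of their peaks. On chromosome 9 from 7740513 to 8103105, 6 peaks with a median length of 5801.5 bp and a median density of 12.97 followed each other, and 5 of them had H3K27me3 in WT SAM and 4 in jmj703 IM. A similar run of 4 long peaks, the one with most tags among 6 runs of this length, lay on chromosome 4 from 15940102 to 16015131 at a median density of 11.6. In contrast, the 6 peaks on chromosome 2 from 21251524 to 21297601 had 46 to 57 tags each and densities of 5.34 to 6.45. They were the only named run with no peak of either mark in any other list at any of its members.

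The WT IM list can also be set beside the jmj703 IM and WT SAM lists by the same measures, keeping in mind that all 3 comparisons share the WT IM library. The median log2 density ratio of one-to-one pairs was 0.30 for SDG711 RNAi IM (6253 pairs), 0.16 for jmj703 IM (8140 pairs) and 0.09 for WT SAM (6970 pairs). The median log2 length ratio was -0.10, -0.04 and -0.26. Of the 865 WT IM peaks of 5 kb or more, the number broken up was 20 against SDG711 RNAi IM (2.31%), 26 against jmj703 IM (3.01%) and 136 against WT SAM (15.7%). Broken-up long IM peaks were thus most frequent against the vegetative apex. A higher density at shared sites was found against all 3 lists, and each of these libraries had fewer tags than WT IM. Filtered tags were 10502005 in SDG711 RNAi IM, 14337383 in jmj703 IM and 16321456 in WT SAM. The density ratio was thus higher the fewer tags the library had. The part of depth in these ratios was not tested.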

How the data were processed

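The series held 14 samples, of which 8 ChIP-seq libraries had a peak list each; the 6 RNA samples were not analysed here. Chromatin was fixed in 1% formaldehyde and sheared to 200 to 750 bp, per the labels' protocols. The authors called peaks in each library separately with MACS 1.4.0rc2 on an alignment with duplicates removed, without a control, at a p cutoff of 1e-05 and with a 10 kb regional background, per the file headers. The limit at a position was 3 tags (WT IM) or 2 tags (SDG711 RNAi IM), and the totals before and after this filter were equal. The submitters' processing notes list TopHat2 2.0.13, Bowtie2 2.1.0, Cufflinks 2.2.1 and Trimmomatic 0.32 and do not tie them to steps. The sources used here do not name a genome build.

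In the deposited lists, a tag count is the raw number of tags in a peak. The deposited score is 10 times the negative log10 of the peak's Poisson p, and fold enrichment as deposited is a ratio, peak height over regional background; both were the authors' and were used only within a list. Starts below 1 were set to 1. Lengths, overlaps, densities and ratios were computed from these values with Python 3.11.15, pandas 2.3.3 and scipy 1.17.1. Shares have Wilson intervals, medians have order-statistic intervals over sites, and ratios of a named pair have exact conditional Poisson intervals. All cover counting error only, and neighbouring peaks are not independent. The pairing and ratio code was tested on simulated data.

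Named sites were, by rule, the 5 highest and 5 lowest density ratios among well-covered pairs, the 5 longest peaks of each list, the WT peaks with most partners, the 5 densest unpaired peaks of each list, the 3 longest runs of unpaired peaks (equal runs by tags) and the chromosomes at both ends of the unpaired share. Members, measures and rules were chosen with earlier results of these data known. The 8 alternatives tried are given in the closing section.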

Additional observations from a re-analysis of the deposited data

How the results depend on the processing

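With 8 alternative settings, 48 values were recomputed, of which 21 stayed within the counting interval of the reported value (for counts of pairs, within 1.5-fold of it), 27 moved outside and 0 changed sign. The median log2 density ratio was above 0 under all 7 settings that could alter it and the median log2 length ratio below 0 under all 5. With an overlap of at least 50% of both peaks required, unpaired shares were 46.7% (WT) and 25.7% (RNAi) and the log2 length ratio -0.080. With p at most 1e-10 in both lists, they were 41.6% and 15.9%, the log2 density ratio was 0.32, the length ratio -0.077, 3 pairs were at least 1.5-fold less dense, and 0.303% of long WT and 1.18% of long RNAi peaks were broken up. After joining peaks up to 1 kb apart, unpaired shares were 38.9% and 15.7%, 9 pairs were less dense and 2.29% of long RNAi regions were broken up. With equally many peaks, unpaired shares were 27.7% and 27.1%, the density ratio was 0.28 and 1.65% of long RNAi peaks were broken up. Scaling to tags inside peaks gave a density ratio of 0.26. Subtracting the genome-wide average gave 0.46, with 2266 pairs at least 1.5-fold denser and 34 less dense. Centring gave 75 and 81. With peaks of at least 1 kb, the unpaired RNAi share was 15.1%, the density ratio 0.31 and the length ratio -0.087. The cause of these movements was not tested, apart from the shorter lists that the stricter p and the equal numbers give by construction. The depth of the RNAi library, 0.459 of the WT library, limits what its missing peaks show. No paired analysis was possible because each group had 1 library.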

Other observations

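Peaks at the starts of the chromosomes are given here as values. Within 5 kb of position 1, 7 chromosomes had an H3K27me3 peak in either list and 6 had one in both. On chromosome 4, the peaks held 687 tags in WT IM and 673 in SDG711 RNAi IM, at densities of 21.1 and 45.6 RPM per kb. On chromosome 2 they held 206 and 218 tags (densities 10.9 and 24.8), on chromosome 5 they held 198 and 197 (11.0 and 22.4), and on chromosome 8 they held 236 and 242 (12.3 and 23.5). The start of chromosome 10 had 301 and 322 tags (22.8 and 28.3), and that of chromosome 1 had 70 and 58 (4.33 and 7.29). At the start of chromosome 3, no WT peak was listed and the RNAi peak held 59 tags (density 7.50). The RNAi densities at chromosomes 1 and 3 were below the median of 7.71 over the RNAi list. At the 6 starts listed in both libraries, raw RNAi tags were 0.829 to 1.07 times the WT number, although the RNAi library had 0.459 times the tags. The chromosome 2 start also had a peak in each of the 4 H3K4me3 lists and in the H3K27me3 lists of WT SAM and jmj703 IM. The limit of 3 tags per position in WT IM and 2 in SDG711 RNAi IM removed no tag. Duplicates had already been removed from the alignment, so this limit cannot show the part of duplicates. The part of that earlier removal was not tested. Totals before and after this filter were equal, at 22887617 and 10502005. The part of repeated sequence was not tested.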
